A study of Solanum tuberosum with 6 samples.

Results

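The clones described here are the 86 of 10499 cDNA clones on a potato array whose annotation names a histone, a chromatin protein, a cyclin or another protein of the cell cycle, or a protein of DNA replication or DNA topology. They were taken by words in the annotation and not by their measured values, though earlier results of these data were known when the words were chosen. Of the 86, 67 were measured on all 6 arrays. The annotation names the most similar known gene. For 1 clone that gene is from potato (Solanum tuberosum), for 9 from tomato or its wild relative Lycopersicon pennellii, and for 28 from Arabidopsis, and the remaining names come from other species. The clones are named by their array identifiers, and their positions in the genome were not analysed here.

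Plants of the potato cultivar PS3, raised in vitro and then grown for 2 months in pots of soil and sand, were watered with 75 mL of 150 mM NaCl, and control plants received as much tap water. Leaves number 1 and 2 were taken 1 day and 3 days later, from a separate set of plants for each day, with 3 biological replicates for each treatment and day. Each of the 6 two-colour arrays set RNA of salt-watered plants against RNA of control plants of the same day and replicate number. On either day the salt RNA of replicates 1 and 3 carried the dye Cy3 and that of replicate 2 carried Cy5, so that dye orientation and replicate number cannot be told apart. All plants were of 1 cultivar and the leaf samples are bulk tissue, in which fewer cells of a type and less RNA per cell cannot be told apart.

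Every value below is a log2 ratio of salt over control, or a coefficient fitted to these ratios, and 1 on this scale is a doubling. Base 2 was taken, since the base is not given in the sources used here. The direction, salt over control, is likely but not stated, and rests on the labels naming control as the reference. Pairs of arrays from 1 day that differ in dye orientation correlated above 0 over all clones (r from 0.475 to 0.639 on day 3, and 0.577 and 0.506 on day 1), so the arrays of a day run the same way, whichever way that is. If the deposited ratios ran the other way, every sign below would turn. The ratios carry no level of a transcript, so clones were not ranked by abundance and the leaf label could not be checked against the levels of marker genes. Array medians lay between -0.005 and 0.049, and 7867 to 10381 clones were measured per array, with 67 to 86 of the clones described here. The array of day 3 replicate 1 stood apart from all day 1 arrays (r = 0.0313, -0.0858 and 0.00579), and calls on a day or in the difference of the days that change without it are given.

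Histones package DNA. Pairs of the core histones H2A, H2B, H3 and H4 form the nucleosome, and the linker histone H1 binds where DNA enters and leaves it. Much core histone is made while DNA is replicated, whereas the variant H3.3 is also placed into chromatin outside replication, mainly in transcribed genes. In tomato and Lycopersicon pennellii a drought-inducible form of H1 is known. Cyclins bind and activate cyclin-dependent kinases, which drive the cell through DNA synthesis and mitosis, and most cells of a grown leaf have left the cycle.

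One day after the watering, 12 of the 81 clones tested rose in salt and 3 fell (limma, Benjamini-Hochberg adjusted p under 0.05 over all clones tested). Histone H1 rose most, by 1.88, and 2 of the 3 histone H3.3 clones, a high mobility group protein and a putative topoisomerase rose by 0.88 to 1.13, while 1 histone H2B clone fell by 0.76. The 12 that rose are 14.8% of those tested, beside 8.11% of all 9738 clones, and the 3 that fell are 3.7%, beside 10.4%. In both directions together the share was 18.5% of these clones and 18.5% of all clones. The median coefficient was 0.11, beside 0.03 over all clones, and 56 of the 81 coefficients were above 0 (69.1%, beside 54.9%). Whether the split between rises and falls differs from that of the other clones was not tested. Histone H1, the H3.3 clone STMEG21 and the high mobility group clone passed in all 12 alternative fits, and the other 12 of the 15 lost the call in at least 1. Leaving out day 1 replicate 2 cost the most calls: without it 3 clones rose and none fell, against 9 and 1 without replicate 1 and 5 and 1 without replicate 3. Calls over all clones also dropped, from 790 higher and 1010 lower to 169 and 367 without replicate 2. Leaving out replicate 1 gave 407 and 575, and leaving out replicate 3 gave 419 and 653. Replicate 2 is the only day 1 array with salt in Cy5, so without it the dye term was estimated from day 3 alone. Without day 3 replicate 1, 16 of these clones rose and 7 fell on day 1, beside 1147 and 1387 of all clones.

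On day 3 only the putative topoisomerase rose and none fell, among 79 clones tested. That is 1.27% of them, against 6.41% of all 9032 clones (1.96% higher and 4.45% lower), and by limma's unadjusted p under 0.05 there were 4 higher and 2 lower. The median absolute coefficient was 0.0995, beside 0.142 over all clones. Without the array of day 3 replicate 1, which stood apart, 4 clones rose on day 3, histone H1 and 2 SWI/SNF clones (STMIJ71 and STMGT94) among them, beside 278 of all clones against 177 with it. Of the 86 clones, 5 were tested on neither day because both dye orientations were not measured on them within a day, or too few arrays were left to estimate a spread: proliferating cell nuclear antigen, replication protein A 70b, a B-type cyclin (STMDE81), an Ania-6a type cyclin (STMCV43) and cyclin D3a STMDO59. A topoisomerase II clone and a clone for the cell cycle switch protein CCS52a (STMDS53, -0.22 on day 1) were tested on day 1 only.

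**Figure D1:**
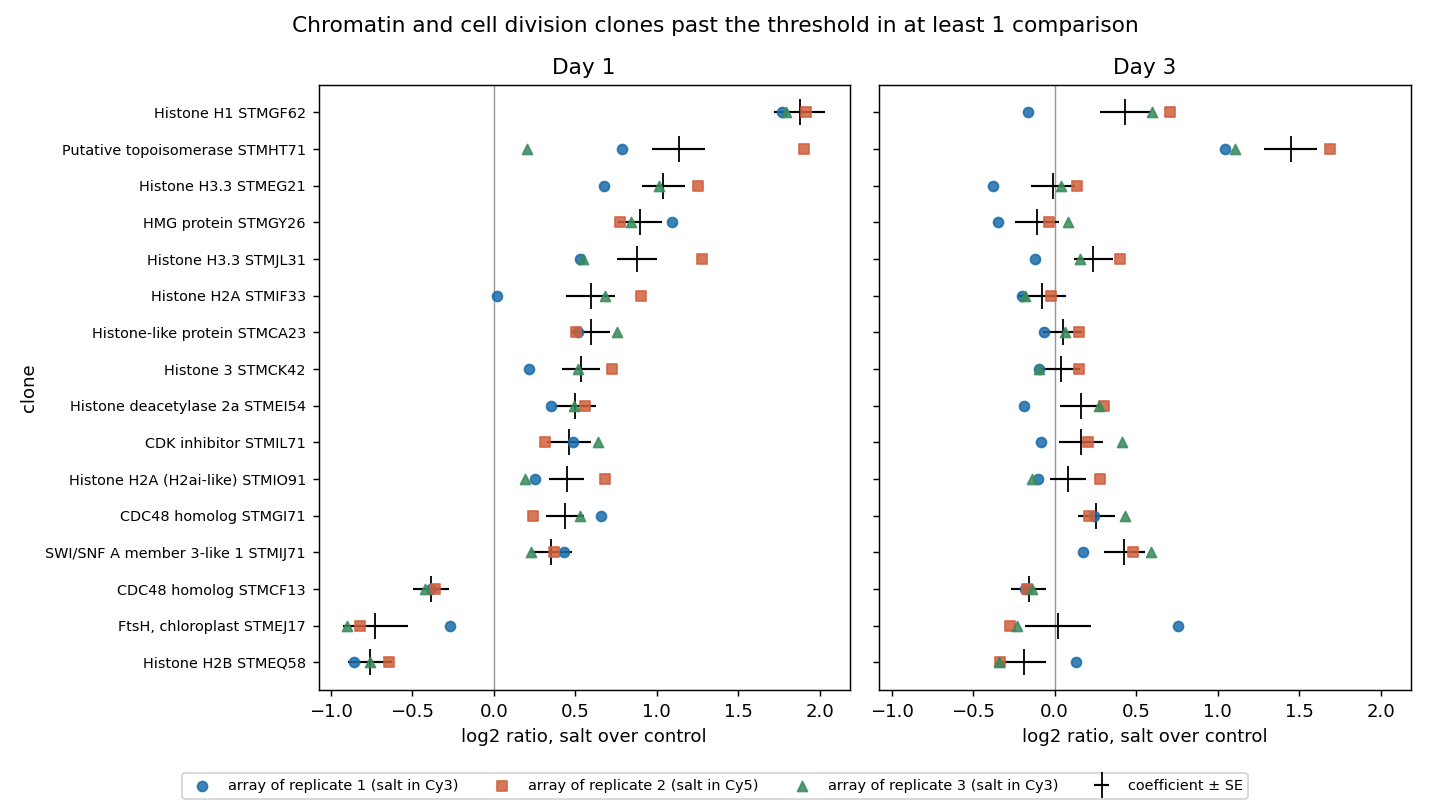
Log2 ratios of salt over control on each array of day 1 (left) and day 3 (right) for the 16 clones past an adjusted p of 0.05 on a day, in the difference between the days or in their average. Points are arrays by replicate, and black marks are the fitted coefficients with their SE. Histone H1 lies at 1.77 or above on every day 1 array, and the putative topoisomerase is the clone that stays above 1 on every day 3 array.

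The histone H1 clone (STMGF62, most similar to H1 of Lycopersicon pennellii) had log2 ratios of 1.77, 1.92 and 1.79 on the arrays of replicates 1, 2 and 3 of day 1. All 3 day 1 arrays were high and lay close together in both dye orientations. Its day 1 coefficient was 1.88 (SE 0.16), a ratio of 3.67 (limma adjusted p = 0.000168). On day 3 its ratios were -0.16, 0.71 and 0.60, with replicate 1 low and the other arrays high, and no overlap with day 1. The day 3 coefficient of 0.43 (SE 0.16) did not pass (limma adjusted p = 0.165). Without day 3 replicate 1 it was 0.65 and passed (limma adjusted p = 0.00862). The difference, day 3 minus day 1, was -1.44 (SE 0.22) and passed (limma adjusted p = 0.00439). Without day 1 replicate 1 the difference was no longer past the threshold, at an adjusted p of 0.0501. In the authors' deposited table the one-sample p-value of this clone was 0.000664 on day 1 and 0.297 on day 3. Other clones that passed here on day 1 were above 0.05 in that one-sample test. They were STMHT71 (0.193), STMIF33 (0.18), STMIO91 (0.133), STMJL31 (0.0855), STMCK42 (0.0817), STMEJ17 (0.0801) and STMGI71 (0.062). The remaining clones that passed on day 1 were below 0.05 in it.

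Of the 7 clones for histone H3, 3 rose on day 1 and none fell, and all 7 coefficients were above 0, with a median of 0.45. Over all clones 8.11% rose, 10.4% fell and 54.9% of the coefficients were above 0. The first H3.3 clone (STMEG21) had ratios of 0.68, 1.25 and 1.02 on day 1 and of -0.38, 0.14 and 0.04 on day 3. Every day 1 array lay above every day 3 array. Its coefficient was 1.04 (SE 0.13) on day 1, a ratio of 2.06 (limma adjusted p = 0.000904), and -0.01 on day 3 (limma adjusted p = 0.983). The second (STMJL31) had ratios of 0.53, 1.28 and 0.55 on day 1 and of -0.12, 0.40 and 0.15 on day 3. The array of replicate 2 was the highest of each day, and the days did not overlap. Its day 1 coefficient was 0.88 (SE 0.12, limma adjusted p = 0.00128) and its day 3 coefficient 0.24 (SE 0.12, limma adjusted p = 0.345).

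The remaining H3.3 clone (STMDE59), assigned to the same assembled contig as STMEG21, had day 1 ratios of -0.11, 0.78 and 0.48. Its replicate 1 lay near 0 where that of STMEG21 did not, and its coefficient of 0.45 did not pass (limma adjusted p = 0.0664). It passed without day 1 replicate 1 (0.63, limma adjusted p = 0.0318) and without day 3 replicate 1 (0.46, limma adjusted p = 0.0401). Among the clones named histone H3 or histone 3 without a variant, 1 of 4 rose (STMCK42, ratios 0.21, 0.72 and 0.52, coefficient 0.54, limma adjusted p = 0.0124). The other 3 had day 1 coefficients of 0.04 (STMCG29, the lowest), 0.19 and 0.21. On day 3 no H3 clone passed, by adjusted or unadjusted p, and the coefficients ran from -0.14 (STMHZ89) to 0.24 (STMJL31).

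**Figure D2:**
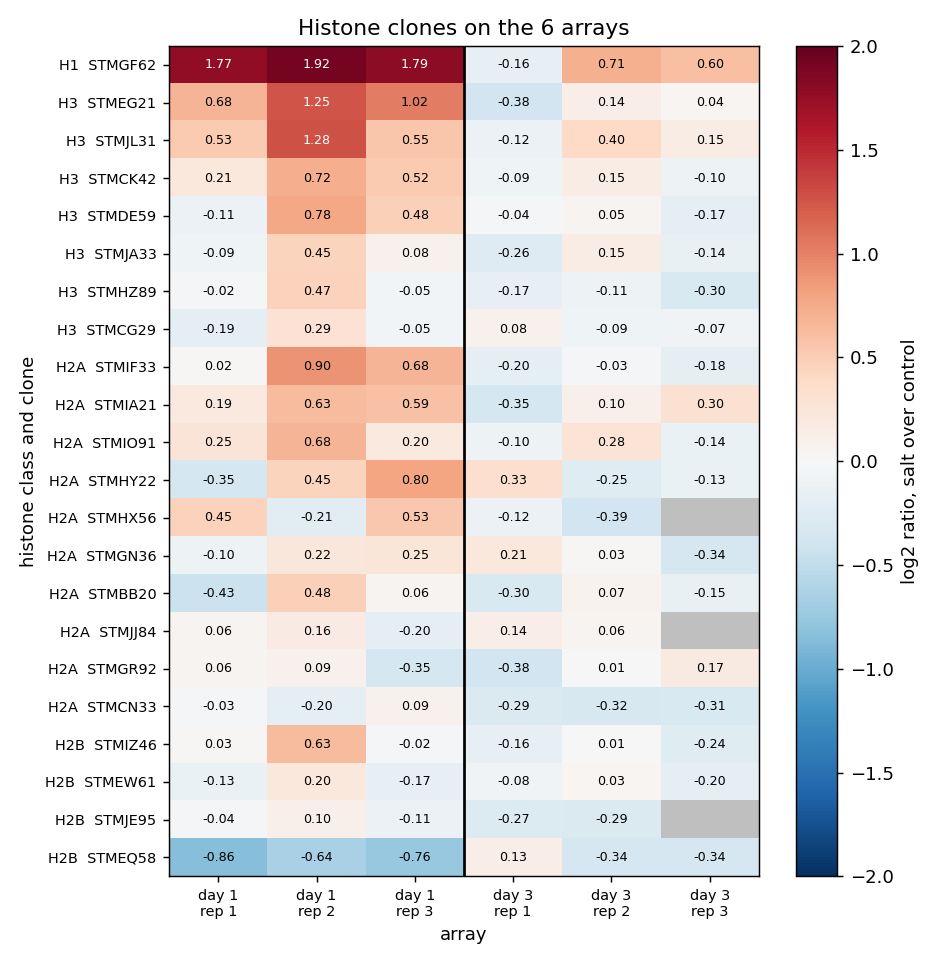
Log2 ratios of salt over control of the 22 histone clones (rows, by class) on the 6 arrays (columns); red is higher in salt, blue lower, and grey cells were not measured. The red block of H1 and the upper H3 rows fills the day 1 columns, and in the rest of the H2A and H3 rows the column of day 1 replicate 2 is the reddest in most cases.

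Of the 10 clones for histone H2A, 2 rose on day 1 and none fell, with a median coefficient of 0.16 and 8 of 10 above 0. The shares over all clones were 8.11% higher, 10.4% lower and 54.9% above 0. The highest was STMIF33, with ratios of 0.02, 0.90 and 0.68 and a coefficient of 0.60 (SE 0.15, limma adjusted p = 0.0229). One of its arrays lay at 0 and the others were clearly higher. STMIO91 had ratios of 0.25, 0.68 and 0.20 and a coefficient of 0.45 (SE 0.11, limma adjusted p = 0.0201). Another clone, STMIA21, had ratios of 0.19, 0.63 and 0.59 and just missed the threshold (0.50, limma adjusted p = 0.0518). It passed without day 3 replicate 1 (0.48, limma adjusted p = 0.0215) and without day 3 replicate 3 (0.52, limma adjusted p = 0.0196). The lowest, STMCN33, stood at -0.07 on day 1. It was also the lowest H2A clone on day 3, where its ratios of -0.29, -0.32 and -0.31 hardly differed and its coefficient of -0.33 did not pass (limma adjusted p = 0.143). The highest on day 3 was STMJJ84 at 0.10, measured on 2 arrays of that day.

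Of the 4 clones for histone H2B, none rose and 1 fell on day 1, beside 8.11% higher and 10.4% lower over all clones. It was STMEQ58, with ratios of -0.86, -0.64 and -0.76 that lay close together in both dye orientations. Its coefficient was -0.76 (SE 0.14, limma adjusted p = 0.00462), which is 1.69-fold lower in salt. On day 3 its ratios were 0.13, -0.34 and -0.34, all above those of day 1, with a coefficient of -0.19 (limma adjusted p = 0.534). The difference of the days, 0.57, did not pass (limma adjusted p = 0.0877). The other 3 H2B clones had day 1 coefficients of 0.28 (STMIZ46, limma adjusted p = 0.144), 0.01 (STMEW61) and 0.0001 (STMJE95). All 4 H2B coefficients of day 3 were below 0, from -0.28 (STMJE95) to -0.04 (STMEW61), and none passed by adjusted or unadjusted p.

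Taken over the 21 clones for H2A, H2B and H3, 5 rose and 1 fell on day 1, and 18 coefficients were above 0 with a median of 0.19. Over all clones 8.11% rose and 10.4% fell, and 54.9% of the coefficients were above 0. Whether the core histones differ from this was not tested. On day 3 none passed (by unadjusted p, 1 was lower), 7 coefficients were above 0, beside 52.8% over all clones, and the median was -0.02. The arrays of day 1 differed: 10 of the 21 ratios were above 0 on replicate 1 (median -0.02), 18 on replicate 2 (median 0.449) and 13 on replicate 3 (median 0.092). Over all clones 5467 of 10139, 4866 of 9869 and 5443 of 10012 ratios were above 0, with medians of 0.04, -0.005 and 0.049. Replicate 2, the array with salt in Cy5, therefore gave the highest median of the core histones, and without it the median coefficient of day 1 was 0.11. On day 3 the medians by array were -0.123, 0.027 and -0.148, again with replicate 2 highest. Dye orientation and replicate 2 cannot be told apart, and their part in the core histone shift was not tested beyond the dye term of the fit. No clone was annotated as histone H4. Histone genes form families of similar sequence, and how far their transcripts bound to each other's spots was not tested.

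High mobility group proteins are small, abundant chromatin proteins that bend or loosen DNA. The clone named after a potato protein of this group (STMGY26) had ratios of 1.10, 0.78 and 0.84 on day 1. The arrays were alike in both dye orientations. Its coefficient was 0.90 (SE 0.13), a ratio of 1.86 (limma adjusted p = 0.0018). On day 3 its ratios were -0.35, -0.03 and 0.08, around 0 and apart from day 1, with a coefficient of -0.11 (limma adjusted p = 0.76). A second clone (STMIG23) is named after a putative high mobility group-like nuclear protein 2 of rice. It was placed here by the words of that name, and whether it is a chromatin protein of this group was not checked. It had coefficients of 0.08 on day 1 and 0.15 on day 3, neither past the threshold.

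Among 7 clones for enzymes that modify histones, 1 rose on day 1 and none fell (8.11% and 10.4% over all clones), with a median of 0.14. It was 1 of 4 clones for histone deacetylase 2a (STMEI54), a plant-specific deacetylase of the nucleolus. Its ratios were 0.35, 0.56 and 0.49 and its coefficient 0.50 (SE 0.13, limma adjusted p = 0.0253). STMDV49, which shares a contig with it, had ratios of 0.15, 0.55 and 0.29 and missed the threshold (0.37, limma adjusted p = 0.0558), which it passed without day 3 replicate 1 (0.36, limma adjusted p = 0.0304). STMDV01, which shares another contig with STMEI54, had 0.13, -0.04 and 0.78 on day 1 and was the lowest of the enzymes on day 3 (-0.37, on 2 arrays, limma adjusted p = 0.329). STMDV49 was the highest on day 3 at 0.17. The histone methyltransferases ATX4 and ASHH3 had day 1 coefficients of 0.13 and -0.18 (STMHZ69, the lowest), and the histone acetyltransferase of type B, which acts on newly made histones, had -0.07. On day 1 this acetyltransferase clone (STMJP07) was measured only with salt in Cy3, and its dye term came from day 3.

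None of the 5 clones for nucleosome assembly and chromatin remodelling passed on either day (limma, with 1 higher and 1 lower on day 1 and 2 higher on day 3 by unadjusted p). The highest on both days was STMIJ71, similar to a remodelling ATPase of the SWI/SNF family, with 0.43, 0.37 and 0.23 on day 1 and 0.17, 0.48 and 0.59 on day 3. All 6 of its ratios were above 0, and the average over both days passed at 0.39 (SE 0.09, limma adjusted p = 0.0183). Without day 3 replicate 1 it passed on day 1 (0.34, limma adjusted p = 0.038) and on day 3 (0.54, limma adjusted p = 0.0263). Its relative STMGT94 had -0.01, -0.17 and -0.03 on day 1 and 0.03, 0.38 and 0.57 on day 3, but the difference of the days did not pass. Without day 3 replicate 1 that difference passed (0.57, limma adjusted p = 0.0366), and so did its day 3 coefficient (0.48, limma adjusted p = 0.0321). A clone for chromatin assembly factor A (STMGY22) had -0.43, -0.31 and -0.25 on day 1, all below 0, with a coefficient of -0.35 (limma adjusted p = 0.0714), and passed without day 3 replicate 1 (-0.34, limma adjusted p = 0.0399). It was also the lowest on day 3, at -0.05. Heterochromatin protein 1 had 0.07 on day 1 and 0.17 on day 3.

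DNA topoisomerases relieve the twist that replication and transcription put into DNA. The clone named putative topoisomerase after an Arabidopsis gene (STMHT71) had ratios of 0.79, 1.91 and 0.20 on day 1 and of 1.04, 1.69 and 1.10 on day 3. All 6 were above 0 and replicate 2 was the highest on both days. The day 3 coefficient was 1.45 (SE 0.16), a ratio of 2.73 (limma adjusted p = 0.000871), and it was past the threshold in every alternative fit. The day 1 coefficient was 1.13 (SE 0.16, limma adjusted p = 0.00157), which was lost without the dye term (0.97, limma adjusted p = 0.0584) and without day 1 replicate 2 (0.80, limma adjusted p = 0.0903). The difference between the days, 0.31, did not pass (limma adjusted p = 0.433).

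No other clone of this group passed on either day. A topoisomerase I clone (STMEO07) had -0.16, -0.60 and -0.82 on day 1 and 0.91, 0.20 and 0.05 on day 3. Its arrays lay below 0 on day 1 and above 0 on day 3. Its coefficients were -0.56 (SE 0.19, limma adjusted p = 0.0723) and 0.35 (limma adjusted p = 0.369), and the difference of 0.91 missed the threshold (limma adjusted p = 0.0544). The difference passed without day 3 replicate 3 (1.14, limma adjusted p = 0.0125). The day 1 coefficient passed without day 3 replicate 3 (-0.59, limma adjusted p = 0.0272) and without day 3 replicate 1 (-0.52, limma adjusted p = 0.0259). Of 12 clones for replication and topology tested on day 1, 1 rose and none fell (8.11% and 10.4% over all clones), with a median of -0.08. The median coefficient without day 1 replicate 3 was 0.05, so its sign rests on that array. The subunits of DNA polymerase delta, which copies DNA at the fork, had day 1 coefficients of -0.09 (STMER24) and -0.16 (STMJJ55). On day 1 STMJJ55 was measured only with salt in Cy3, at -0.55 and -0.27, and its dye term came from day 3. The 2 clones for replication factor C, which loads the sliding clamp, had 0.15 (STMEN08) and 0.17 (STMHN55). The lowest on day 3 was STMIV09 (-0.21), similar to a bacterial polymerase subunit. Proliferating cell nuclear antigen, the clamp itself (STMIJ54), was measured on 2 arrays of day 1, at -0.52 and 0.16. It was not tested, because both of these and its array on day 3 had salt in Cy3.

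No cyclin passed the threshold. Of 11 tested on each day none rose or fell (limma, with 1 lower on each day by unadjusted p), and the medians were 0.05 and 0.01. The lowest on day 1 was a cyclin C-like clone (STMCD12), with -0.64, -0.50 and -0.31 and a coefficient of -0.52 that just missed (limma adjusted p = 0.0564). It passed without day 3 replicate 1 (-0.49, limma adjusted p = 0.0109) and without day 3 replicate 3 (-0.54, limma adjusted p = 0.0283). On day 3 cyclin T1 (STMED91) was the highest at 0.21 and cyclin A2 (STMGW31) the lowest at -0.39, on 2 arrays. Cyclins C, T and H act with kinases of the transcription machinery in plants and animals, while cyclins of the A, B and D classes act in the cycle. Cyclin H-1 (STMHF33) had 0.08 on day 1, cyclin D1 (STMDE44) 0.05, cyclin D2 (STMJH81) -0.12 and cyclin A3 (STMGP65) -0.06.

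The widest ratios of the whole set belonged to cyclin D3a (STMIN96), a D-type cyclin that couples growth signals to entry into the cycle. Its ratios were 1.45, -1.19 and 2.20 on day 1 and 0.38, -1.07 and 1.04 on day 3. They were above 0 on all 4 arrays with salt in Cy3 and below 0 on both with salt in Cy5. Its dye term was -1.20 (SE 0.17, unadjusted p = 5e-05, limma adjusted p = 0.0515), and its coefficients of 0.42 on day 1 and -0.28 on day 3 did not pass. A second cyclin D3a clone of the same contig (STMDO59) was measured only with salt in Cy3, and was not tested for that reason. Its ratios were 0.47 and 1.34 on day 1 and 0.06 on day 3. A putative cyclin (STMGV96) showed the pattern with 1.27, -1.05 and 1.70 on day 1, and so did topoisomerase II (STMDH63) with 0.61, -0.86 and 0.89.

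**Figure D3:**
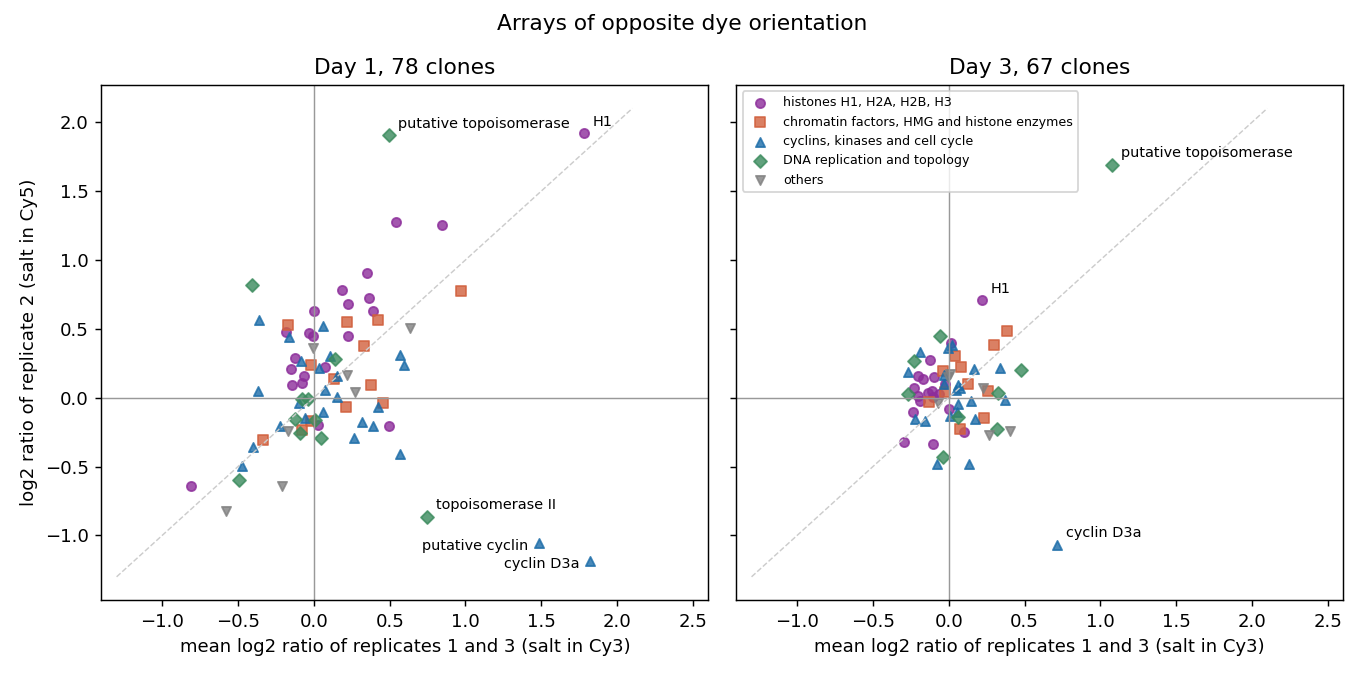
Mean log2 ratio of replicates 1 and 3, with salt in Cy3 (horizontal), against the log2 ratio of replicate 2, with salt in Cy5 (vertical), for the 78 clones measured on all 3 arrays of day 1 and the 67 of day 3. A clone on the dashed line has the same ratio in both orientations. Cyclin D3a, the putative cyclin and topoisomerase II lie at lower right, with opposite signs in the orientations, and most core histones of day 1 lie above the line.

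The share of such opposed ratios was near that of the whole array. Replicate 2 was opposite in sign to replicates 1 and 3 on both days in 6 of the 67 clones on all arrays (8.96%), beside 8.03% of all 7632 such clones. By unadjusted p under 0.05 the dye term differed from 0 for 17 of 81 clones (21.0%), beside 18.7% of all clones, and passed adjustment in none of either. Conversely, 5 of the 67 clones (7.46%) had the same sign on all 6 arrays, against 15.2% of all such clones. They were the putative topoisomerase, the SWI/SNF clone STMIJ71, the polymerase clone STMIV09 and 2 clones for CDC48.

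Of 15 clones for cyclin-dependent kinases and other cell cycle proteins, 2 rose and 1 fell on day 1 (8.11% and 10.4% over all clones), with a median of 0.10. A clone for a cyclin-dependent kinase inhibitor (STMIL71), a class of protein that holds the kinases back, had 0.49, 0.31 and 0.64 on day 1, all well above 0. Its coefficient was 0.46 (SE 0.13, limma adjusted p = 0.043) and it was 0.16 on day 3 (limma adjusted p = 0.6). The 3 clones for the kinase p34cdc2, the central kinase of the cycle, had day 1 coefficients of 0.06, 0.09 and -0.16 and none passed. The B2-type kinase, a plant class active around mitosis (STMDE72), had 0.38, -0.41 and 0.77 on day 1, with opposed signs in the dye orientations. It was the lowest of the group on day 3 at -0.20.

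CDC48 is an ATPase that pulls proteins out of complexes and membranes, in the cycle and outside it, and its clones differed in direction. STMGI71 rose, with 0.66, 0.24 and 0.53 (coefficient 0.44, SE 0.12, limma adjusted p = 0.0297), and was the highest of the group on day 3 (0.26, limma adjusted p = 0.278). STMCF13 fell, with -0.38, -0.36 and -0.42 (coefficient -0.39, SE 0.11, limma adjusted p = 0.0382). Both kept their sign on all 6 arrays. The 3 clones of a shared CDC48 contig (STMCM79, STMID24 and STMIU32) had day 1 coefficients of 0.13, 0.22 and 0.16, and none passed.

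The annotation words also took 7 clones of other kinds. A histone-like protein named after a rice gene (STMCA23) rose on day 1, with 0.52, 0.51 and 0.76 (coefficient 0.60, SE 0.12, limma adjusted p = 0.00817), and stood at 0.05 on day 3. A chloroplast FtsH clone (STMEJ17) fell, with -0.27, -0.82 and -0.90 (coefficient -0.73, SE 0.20, limma adjusted p = 0.0349). In plants FtsH is a membrane protease that clears damaged photosystem protein, and its name as a cell division protein comes from bacteria. STMGR10, of the same contig, had -0.01, 0.36 and 0.00, with a coefficient of 0.14, so that clones of the same contig disagreed. It was the highest of these on day 3 (0.19). The lowest was a Tubby and F-box clone (STMHA54, -0.24). Another FtsH clone of these 7 (STMIC86) did not pass on day 1 with all arrays. It passed on day 1 without day 3 replicate 1 (-0.41, limma adjusted p = 0.0194) and without day 3 replicate 3 (-0.47, limma adjusted p = 0.0391).

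**Figure D4:**
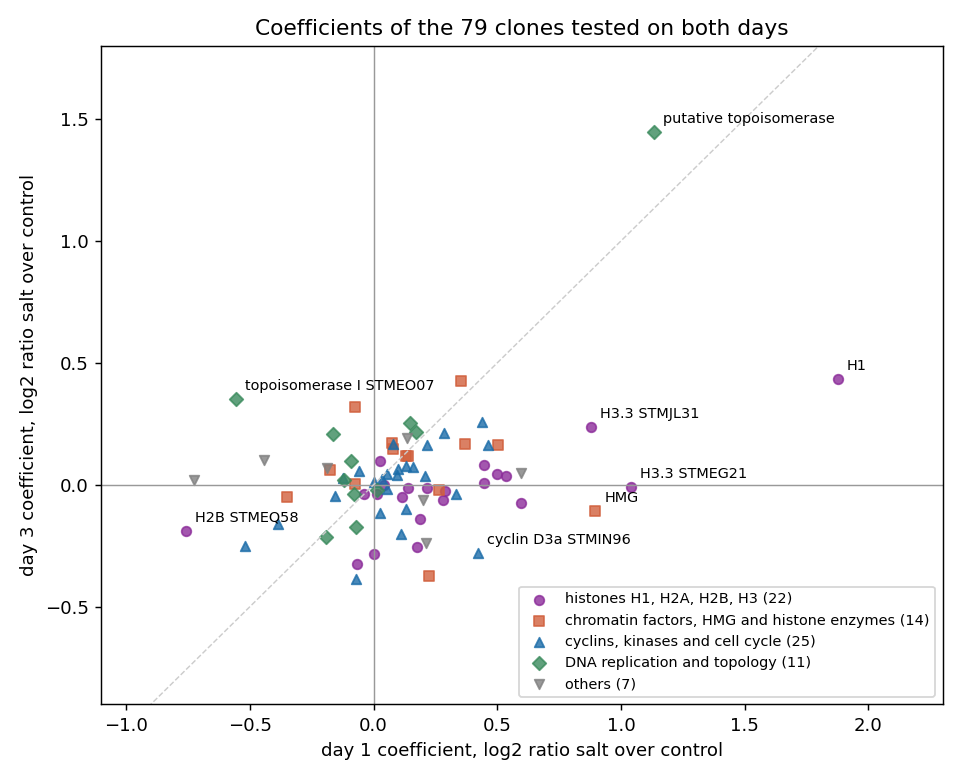
Day 1 coefficient (horizontal) against day 3 coefficient (vertical), both in log2 ratio of salt over control, for the 79 clones tested on both days; the dashed line marks equal values. Histone H1, the H3.3 clones STMEG21 and STMJL31 and the high mobility group clone lie far to the right with day 3 values from -0.11 to 0.43, and the putative topoisomerase lies near the line.

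The change from day 1 to day 3 was tested as a contrast of the fit. None of the 79 clones rose and 4 fell (limma; by unadjusted p 4 were higher and 9 lower), which is 5.06% of them, beside 5.12% of all 9028 clones lower, 6.46% higher and 11.6% either way. The 4 were histone H1 (-1.44), the H3.3 clones STMEG21 (-1.05) and STMJL31 (-0.64) and the high mobility group clone (-1.005). For the average of both days 11 clones rose and 2 fell, 16.5% of those tested, beside 17.8% of all clones (7.26% higher and 10.6% lower). The putative topoisomerase (1.29) and histone H1 (1.16) had the largest averages and were the 2 of the 13 that passed in all 12 alternative fits. Each of the 4 differences was lost without at least 1 array: histone H1 and the high mobility group clone without day 1 replicate 1, STMEG21 without day 1 replicate 2, and STMJL31 without any 1 of 5 arrays. That of STMJL31 was also lost without the dye term (limma adjusted p = 0.192) and with arrays scaled to equal median absolute deviation (-0.56, limma adjusted p = 0.0697). The days shared no plants, but both enter 1 estimate of the spread.

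Related clones outside the set were found by word lists. Of 7 tested clones for DNA precursors and replication machinery, none rose and 1 fell on day 1 (STMJN79, -0.83), which was matched through the name of a genomic clone and not as a replication gene. None of 17 tested clones for the mitotic apparatus (kinesins, katanin, phragmoplastin and kinetochore proteins) passed on either day (limma; by unadjusted p 2 were higher and 1 lower on day 1, and 1 lower on day 3), with medians of 0.06 and -0.02. Of 10 chromatin factors named without that word, a SET-domain clone (STMJP20), whose domain transfers methyl groups to histones in many proteins, fell on day 1 (-0.51, limma adjusted p = 0.0159) and on day 3 (-0.71, limma adjusted p = 0.00636). Its 6 ratios ran from -0.92 to -0.38, all below 0.

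Markers of leaf tissue moved on the same day as the histones. Mesophyll markers were 25 clones matched by words, 24 of them for chlorophyll-binding proteins or the Rubisco small subunit and 1 for a methyltransferase acting on that subunit (STMHT87, -0.31 on day 1, not past the threshold). Most of the 24 carry the same Rubisco small subunit name, so the counts below rest largely on that gene family. Of the 25, 21 fell on day 1 and none rose, with array medians of -2.13, -1.66 and -1.76 and single ratios over all arrays from -3.08 to 1.40. On day 3 none passed (limma; by unadjusted p 2 were lower), with array medians of 0.92 on replicate 1 and -0.28 and -0.35 on the others. None of 3 tested meristem clones passed on either day by adjusted or unadjusted p, and their day 1 coefficients ran from 0.07 to 0.12. Of 7 tested clones for tuber and storage markers, 1 patatin clone (STMEP28) fell on day 1 (-1.45, limma adjusted p = 0.00107) and none rose. None of 6 tested pollen clones passed on day 1. On day 3 none of the 5 tested clones of either list passed. The part of a change in tissue make-up in the histone results was not tested.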

How the data were processed

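RNA of salt-watered and control leaves was compared on 6 two-colour cDNA arrays. Values entered as log2 ratios, which the authors had deposited, 1 per clone and array, and base 2 was taken here. The deposited table also holds the authors' p-value per clone and day from a one-sample test, per the file headers. How spots were scanned, filtered, background-corrected and normalized is not given in the sources used here, nor is the log base. The value table was joined to the annotated clone table by the 6 ratios of a clone, which matched for all 10499 rows (8 rows share their values with another row).

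A linear model with 1 coefficient per day and a dye term was fitted to each clone over the 6 arrays, omitting missing ratios, and tested with limma 3.58.1 (R 4.3.3). A p-value is two-sided, moderated across clones and adjusted by Benjamini-Hochberg over all clones tested. For a clone on all arrays the day 1 coefficient weighs the arrays of day 1 replicates 1, 2 and 3 by 0.292, 0.417 and 0.292, and those of day 3 by -0.0417, 0.0833 and -0.0417, through the shared dye term. A clone was tested with at least 2 arrays on the day, a dye term that could be estimated and at least 1 residual degree of freedom. A first fit kept clones whose dye term could not be estimated. It also called the Ania-6a type cyclin (STMCV43, 0.82) and cyclin D3a (STMDO59, 0.90) higher on day 1. After these calls had been seen such clones were left untested, since dye and salt cannot be separated in them, and the first fit is kept as an alternative.

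The clones and word lists were chosen with earlier results of these data known. Roles came from word patterns, and 11 clones were moved to another role after their annotation was read. Clones named with all array values passed an adjusted p of 0.05 in a comparison, were the highest or lowest of their role on a day, or are named for a shared contig, an opposed dye pattern or a near miss, the last chosen after their values were seen. The fit was tested on simulated data. Alternatives were no dye term, equal median absolute deviation, complete clones, median centring, a replicate block and each array left out. The number of arrays limits the precision. Tables and plots were made with Python 3.11.15 (pandas 2.3.3, NumPy 2.4.6, matplotlib 3.10.9).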

Additional observations from a re-analysis of the deposited data

Results flagged for a closer look

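The salt effect differed between the days in 4 clones, by limma's test of the difference itself with adjustment over all 9028 clones tested. These are 5.06% of the 79 clones tested here, near the 5.12% of all clones that were lower. In either direction the share over all clones was 11.6%. Histone H1 (STMGF62) had 1.88 on day 1 and 0.43 on day 3, a difference of -1.44 (limma adjusted p = 0.00439), and all 3 day 1 ratios lay above all 3 of day 3. The histone H3.3 clone STMEG21 had 1.04 and -0.01, a difference of -1.05 (limma adjusted p = 0.00769), again without overlap. The high mobility group clone STMGY26 had 0.90 and -0.11, a difference of -1.005 (limma adjusted p = 0.00936), without overlap. The second H3.3 clone, STMJL31, had 0.88 and 0.24, a difference of -0.64 (limma adjusted p = 0.0394), also without overlap. The 4 clones were picked by a test on these same ratios, so the lack of overlap is no further support. How many of all clones lack overlap was not counted. On day 3 the array of replicate 1 was the lowest in each of these 4 clones. Without it the differences of H1, STMEG21 and STMGY26 were still past the threshold, and that of STMJL31 was not (-0.60, limma adjusted p = 0.0541). The difference of STMJL31 also missed the threshold without the dye term (limma adjusted p = 0.192), with arrays scaled to equal median absolute deviation (limma adjusted p = 0.0697), and without any 1 of the day 1 arrays or day 3 replicate 2 (limma adjusted p from 0.112 to 0.236).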

How the results depend on the processing

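Of 726 comparisons of a named clone's value with an alternative fit, 605 kept the direction and the side of the threshold, 102 fell short of it, 10 newly passed it and 9 turned sign, none of the last past the threshold in either fit. On day 1 the 12 rises were 7 without the dye term and 3 to 16 with 1 array left out, and the 3 falls were 1 with arrays scaled to equal median absolute deviation and 0 to 7 with 1 array left out. On day 3 the 1 rise was 2 with that scaling and 1 to 4 with 1 array left out. In the difference of the days the rises were 0 to 3 and the falls 2 to 4 with 1 array left out, and in the average the rises were 2 to 14 and the falls 0 to 5. Fits without 1 array have fewer samples, and the cause of the other shifts was not tested. With 1 array left out, sign turned on day 1 for STMCN33 (-0.116 to 0.0175, positive without day 1 replicate 2), STMCG29 (-0.17 to 0.12, negative without day 1 replicate 2) and STMIG23 (-0.023 to 0.168, negative without day 1 replicate 3). On day 3 it turned for STMDE72 (-0.358 to 0.011) and STMGY26 (-0.229 to 0.024) without day 3 replicate 1, and for STMEW61 (-0.0845 to 0.0372), STMHZ89 (-0.205 to 0.0155) and STMGY22 (-0.097 to 0.0865) without day 3 replicate 2. It also turned for STMJJ84 on day 3 under the replicate block (-0.0022). Keeping clones of 1 dye orientation, chosen after seeing the data, gave 14 rises on day 1. Of 216 medians of role groups, 203 moved by less than the SD of the array medians. That SD is wide where the 3 arrays of a day differ. For the core histones on day 1 the array medians were -0.02, 0.449 and 0.092. The count therefore does not show that the medians are stable.

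With the replicate number as a block in place of the dye term, 16 clones rose and 4 fell on day 1 and 1 and 0 on day 3, the difference had 2 rises and 5 falls, and the average 12 and 3. Under the block cyclin D3a STMIN96 (0.82, limma adjusted p = 0.0112), the putative cyclin STMGV96 (0.64, limma adjusted p = 0.0415) and topoisomerase I STMEO07 (-0.53, limma adjusted p = 0.00826) passed on day 1, and so did the difference of STMEO07 (0.91, limma adjusted p = 0.00619). The numbers were not taken to pair the samples, because the days used different plants. Deviations of same-numbered arrays correlated at 0.046, 0.596 and 0.451. Day 1 replicate 1 correlated best with day 3 replicate 3 (0.198), and the other day 1 arrays with their own number. Same-numbered arrays also share a dye orientation, and crossing replicates 2 and 3 gave -0.501 and -0.521. The deviations are from the mean of the 3 arrays of a day and sum to 0 for each clone. Values above 0 for some pairs therefore push those of other pairs below 0. The deposited ratios carry no signal over background, so what dim spots limit could not be measured, and 3 arrays a day limit the precision.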
